A study of Mus musculus with 6 samples.

Results

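The 9 genes described here encode enzymes that cut the extracellular matrix, their inhibitors, and an activator of plasminogen with its receptor. They are 4 matrix metalloproteinases (Mmp3, Mmp9, Mmp13 and Mmp14), 3 tissue inhibitors of metalloproteinases (Timp1, Timp2 and Timp3), the urokinase-type plasminogen activator Plau and its receptor Plaur. They were taken by gene symbol, and all 9 were found among the 23420 genes of the deposited count table. The filter on low counts kept 6 of them and 12672 genes in all. Mmp3, Mmp9 and Mmp13 were too low for it.

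RNA was sequenced from mouse epidermal keratinocytes grown in low-calcium medium, at passage 8 to 10. Every sample carried loxP-flanked Gata6 alleles (Gata6 fl/fl) and was given 1 µM 4-hydroxytamoxifen for 6 hours. The 3 libraries labelled iKO, for induced knockout, also carried K14CreERT2, a tamoxifen-dependent Cre recombinase under the promoter of keratin 14, which basal keratinocytes express, and the 3 libraries labelled WT were K14CreERT2-negative. The labels do not say whether the libraries of a group came from separate animals or cultures, so the spread that p-values are set against may be technical.

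Metalloproteinases of this family carry a zinc ion in the active site and are made as inactive proenzymes. Plau, held at the cell surface by Plaur, turns plasminogen into plasmin, which digests fibrin and can activate several of the secreted proenzymes. Mmp14 is anchored in the membrane, cleaves collagen around the cell and activates pro-Mmp2 in a complex that contains Timp2. In skin these genes are best known from wound repair, where keratinocytes at the wound edge use them to move through provisional matrix.

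Libraries held between 21943467 and 83337263 reads assigned to genes. All 8 keratinocyte markers were read in every library, with Krt5 between 14720 and 23610 CPM (counts scaled to library size and by TMM factors, which correct for differences in RNA composition). Of these markers, the basal transcription factor gene Trp63 was lower in every iKO-labelled library (320 ± 12.3 against 199.5 ± 7.85 CPM) and the E-cadherin gene Cdh1 higher (433 ± 13.0 against 634 ± 82.4 CPM; SD, n = 3). Reads in the summary rows that name no gene made up 34.8% to 35.5% of counts with the WT label and 27.4% to 31.97% with the iKO label, without overlap, and their part in the results was not tested. Gata6 itself went against the labels, at 0.519 to 5.37 CPM in the WT-labelled libraries and 14.2 to 21.01 CPM in the iKO-labelled ones, and counts per gene do not check the loss of the floxed exons. Esr1, the oestrogen receptor gene whose ligand-binding part CreERT2 carries, went with the labels, at no more than 0.284 CPM in the WT-labelled libraries and 29.6 to 99.3 CPM in the iKO-labelled ones. Xist, the RNA that coats the inactive X chromosome, averaged 736 ± 143 CPM with the WT label and 1.17 ± 1.31 CPM with the iKO label (SD, n = 3), so sex and genotype label cannot be told apart. Higher and lower below mean higher and lower with the iKO label than with the WT label.

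Promoters were searched for motif letters that these genes share. Sequences from RefSeq were used for 7 of the 9 genes, since Mmp9 and Plau had no entry. The 250 bases before each start were searched on both strands. The letters sought were those of the AP-1 site (TGAGTCA or its reverse complement TGACTCA), which Fos and Jun proteins bind, the GC box (GGGCGG or CCGCCC), which Sp1 and KLF factors bind, and a GATA site (AGATAA or TTATCT). No GATA letters were found in any of the 7, against 9.99% of all 32851 RefSeq promoters with them. AP-1 letters were found in 3 (Mmp3, Mmp13 and Plaur), against 4.46% of all promoters, and GC boxes in 5 (Mmp14, Timp1, Timp2, Timp3 and Plaur), against 32.7%. A match is a description of the letters and does not show binding. Printed here are the 3 promoters with AP-1 letters and that of Mmp14, the one with the highest level of the 4 metalloproteinases, with AP-1 and GC box letters in capitals.
Mmp3 (GRCm38.p6, chr9:7445572-7445821, plus strand): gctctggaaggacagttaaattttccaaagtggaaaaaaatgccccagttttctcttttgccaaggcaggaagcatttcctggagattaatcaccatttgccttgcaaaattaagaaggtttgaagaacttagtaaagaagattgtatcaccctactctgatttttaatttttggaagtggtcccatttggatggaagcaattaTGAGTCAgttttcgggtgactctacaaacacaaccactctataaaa
Mmp13 (GRCm38.p6, chr9:7272264-7272513, plus strand): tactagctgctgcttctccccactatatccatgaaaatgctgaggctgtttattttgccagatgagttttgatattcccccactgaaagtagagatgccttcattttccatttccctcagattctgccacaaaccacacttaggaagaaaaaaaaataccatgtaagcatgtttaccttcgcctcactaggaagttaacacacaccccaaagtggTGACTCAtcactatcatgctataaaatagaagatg
Plaur (GRCm38.p6, chr7:24462233-24462482, plus strand): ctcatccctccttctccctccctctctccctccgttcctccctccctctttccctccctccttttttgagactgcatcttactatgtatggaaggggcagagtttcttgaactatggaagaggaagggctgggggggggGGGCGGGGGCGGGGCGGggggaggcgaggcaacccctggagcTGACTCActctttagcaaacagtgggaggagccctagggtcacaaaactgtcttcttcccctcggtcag
Mmp14 (GRCm38.p6, chr14:54431348-54431597, plus strand): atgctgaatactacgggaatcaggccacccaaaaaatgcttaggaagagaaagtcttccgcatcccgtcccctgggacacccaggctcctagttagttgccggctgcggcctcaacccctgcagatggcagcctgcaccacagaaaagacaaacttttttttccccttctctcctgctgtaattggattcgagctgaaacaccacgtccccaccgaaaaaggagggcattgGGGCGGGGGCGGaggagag
The AP-1 letters begin 46 bases before the start in Mmp3, 35 in Mmp13 and 69 in Plaur. Plaur also holds 3 GC boxes and Mmp14 holds 2, each directly next to or overlapping another. Of the genes with few reads, Mmp3 and Mmp13 had AP-1 letters and Mmp9 was not searched. Plaur, also with AP-1 letters, had at least 879 reads in every library.

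Of the 4 metalloproteinases, Mmp14 carried nearly all reads, and it was higher in every library labelled iKO than in any labelled WT. Mmp14 (chromosome 14, 54431612 to 54445364, plus strand, mm10) measured 85.2, 75.2 and 103 CPM in the WT-labelled libraries WT 2, WT 3 and WT 4. In the iKO-labelled libraries it measured 142 CPM (iKO 3), 204 CPM (iKO 4) and 134 CPM (iKO 33, named for the number of its column). The groups did not overlap, and iKO 4 stood highest. Group values were 87.9 ± 14.2 and 160 ± 38.2 CPM (SD, n = 3). The log2 fold change was 0.86 with a standard error (SE) of 0.20, or 1.82-fold. Mmp14 ranked 299th of the 12672 genes by p, and it missed the threshold in the quasi-likelihood test of edgeR with Benjamini-Hochberg adjustment (unadjusted p = 0.00326, adjusted p = 0.138). It passed in DESeq2 (adjusted p = 0.00666). The authors' deposited table is named for DESeq2 too, so it is not a second method. There the log2 fold change of Mmp14 was 0.75 (SE 0.20), against 0.86 (SE 0.23) in DESeq2 run here. Its adjusted p in that table was 0.00687. The threshold of 0.05 was met by 5.9% of the genes with an adjusted p in that table. In edgeR the log2 fold change of Mmp14 was lowest without iKO 4, at 0.65, and highest without WT 4, at 0.99.

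None of the 6 tested genes was called by edgeR at an adjusted p of 0.05, where 43 of 12672 genes were, 0.339% of those tested. Mmp14 was the 1 of the 6 with an unadjusted p under 0.05, which 15% of all tested genes reached, and the 1 called by DESeq2, which called 5.57% of the genes it gave an adjusted p. Mmp14 and Plaur were the 2 of the 6 whose groups did not overlap, against 21.9% of all tested genes in either direction and 10.5% with the iKO-labelled libraries higher. These shares come from small counts and are read as descriptions.

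The secreted metalloproteinases were close to the limit of counting. Mmp3 (stromelysin-1; chromosome 9, 7445822 to 7455975, plus strand) had 5, 2 and 19 reads in WT 2, WT 3 and WT 4, and 0, 13 and 21 in iKO 3, iKO 4 and iKO 33. Mmp13 (collagenase-3; chromosome 9, 7272514 to 7283331, plus strand) had 1, 2 and 4 reads with the WT label and 0, 0 and 4 with the iKO label. Mmp9 (gelatinase B; chromosome 2, 164940780 to 164955850, plus strand) had 0, 0 and 1 reads against 1, 5 and 2. The groups overlapped for Mmp3 and Mmp13, and in CPM also for Mmp9, since WT 4 (0.0284 CPM) lay above iKO 33 (0.0235 CPM). Over all 6 libraries these genes summed to 60, 11 and 9 of 295919976 reads. A count of 0 allows up to 3 reads, which is 0.0959 CPM in iKO 3 and 0.138 CPM in WT 2, the shallowest library, for counting error only. No difference between the groups was detectable at this depth for the 3 genes. DESeq2, which uses another filter, gave an adjusted p for Mmp3 (0.931, log2 fold change -0.52, SE 1.36) and none for Mmp9 and Mmp13.

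Among the inhibitors, Timp2 varied less between libraries than Timp1 and Timp3, and the groups overlapped for all 3. Timp2 (chromosome 11, 118301069 to 118355740, minus strand) measured 228, 261 and 161 CPM in WT 2, WT 3 and WT 4. In iKO 3, iKO 4 and iKO 33 it measured 245, 151 and 254 CPM. Both libraries numbered 4 were the lowest of their group. The group values of Timp2 were 216 ± 50.8 and 216 ± 56.9 CPM (SD, n = 3), with a log2 difference of -0.0011 (SE 0.25, edgeR adjusted p = 0.999).

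Timp3, which binds to the matrix and also inhibits the sheddase Adam17, varied widely between libraries. Timp3 (chromosome 10, 86300372 to 86349506, plus strand) measured 320, 334 and 41.3 CPM in WT 2, WT 3 and WT 4. In iKO 3, iKO 4 and iKO 33 its level was 868, 90.8 and 382 CPM. Again the libraries numbered 4 were the lowest of each group, and the groups overlapped. The range was 8.10-fold within the WT-labelled libraries and 9.55-fold within the iKO-labelled ones. The log2 fold change was 0.95 (SE 0.93, edgeR adjusted p = 0.689), with group values of 232 ± 165 and 447 ± 392 CPM (SD, n = 3). It moved with single libraries, to 0.03 without iKO 3, 0.43 without WT 4 and 1.43 without iKO 4. In the annotation 21.3% of the exon length of Timp3 is shared with Syn3 on the other strand. Syn3 had at most 2.65 CPM in any library, and whether reads were counted by strand is not given in the sources used here.

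Timp1, a soluble inhibitor that acts poorly on the membrane-bound Mmp14, went the other way in the same libraries. Timp1 (chromosome X, 20870166 to 20874735, plus strand, inside an intron of Syn1 with no shared exon bases) measured 25.4, 3.67 and 41.5 CPM in WT 2, WT 3 and WT 4. In iKO 3, iKO 4 and iKO 33 its level was 15.9, 74.8 and 22.4 CPM. The libraries numbered 4 were here the highest of each group, WT 3 was the lowest of all, and the groups overlapped. The range was 11.3-fold within the WT-labelled libraries and 4.70-fold within the iKO-labelled ones. Its log2 fold change of 0.69 (SE 0.88, edgeR adjusted p = 0.769) was -0.29 without iKO 4 and 0.17 without WT 3, so the direction rested on iKO 4. Timp1 is X-linked, so for it too sex and genotype label cannot be told apart.

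**Figure D1:**
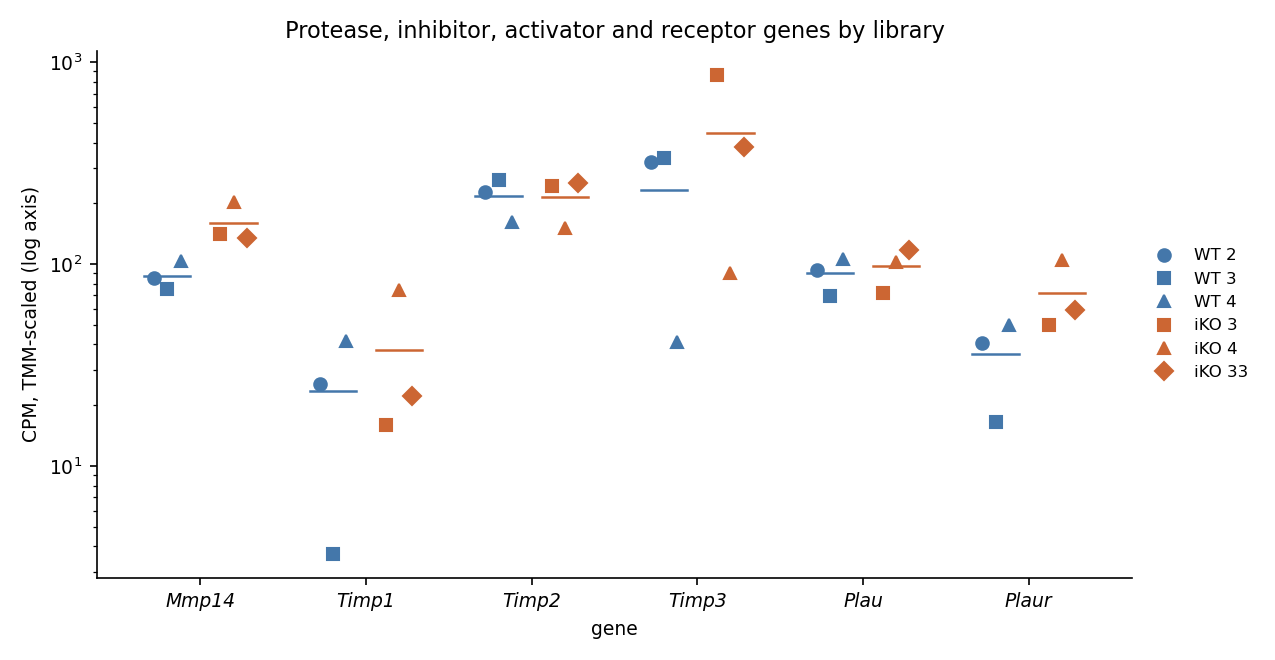
CPM (TMM-scaled, log axis) of the 6 tested genes, with 1 point per library, circles for number 2, squares for 3, triangles for 4 and a diamond for 33, and lines at the group means (blue WT, orange iKO). Mmp14 and Plaur have no overlap between groups, while the triangles of Timp1 are the highest and those of Timp3 the lowest of each group.

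The spread of Timp3 between libraries of the same group was the largest among genes of moderate to high level. Among the 5735 genes with a mean log2 CPM of at least 5, the pooled within-group SD had a median of 0.18 on the log2 scale. Timp3 stood at 1.69, ahead of Id2 at 1.55, which encodes an inhibitor of basic helix-loop-helix factors, Spink5 at 1.46, the serine protease inhibitor of the upper epidermis, and Serpinb9b at 1.43. These 3 genes were named after their values were seen. Plaur (0.72) had 93 genes above it, Timp2 (0.39) 534, Plau (0.34) 724 and Mmp14 (0.28) 1198. Timp1 lay under the level needed for this ranking.

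**Figure D2:**
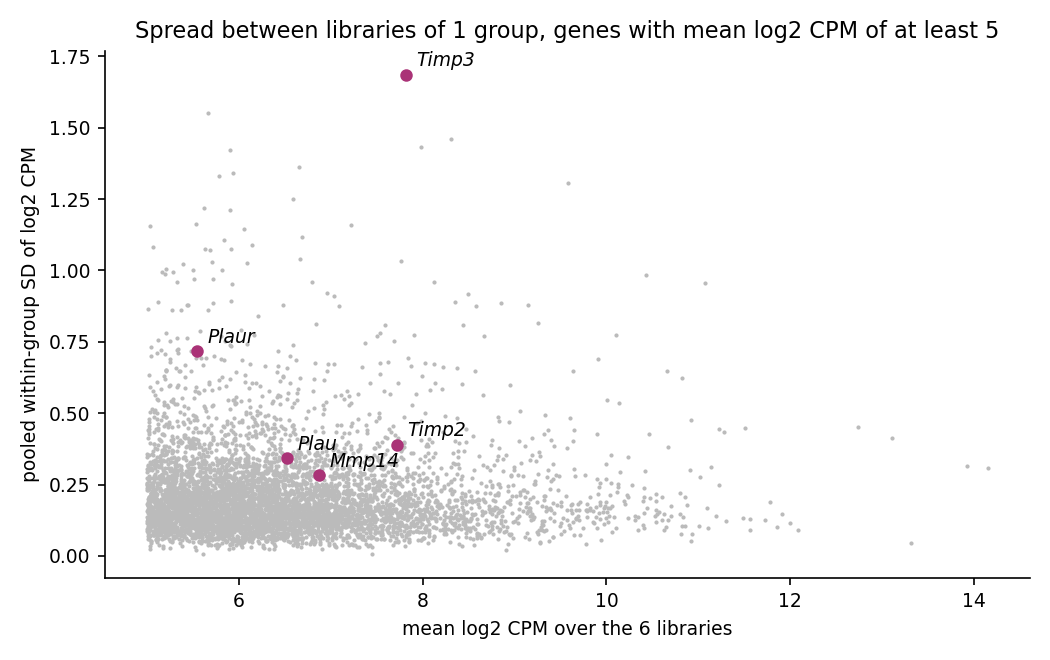
Pooled within-group SD of log2 CPM against mean log2 CPM over the 6 libraries, 1 grey point for each of 5735 genes with a mean of at least 5, and named points for the genes described here. Timp3 lies above every other point, at 1.69, and Mmp14 at 0.28 lies nearer the median of 0.18.

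To compare levels between genes, CPM was divided by the merged length of all annotated exons. The annotation behind the counts is not given, and Timp3 shares exon length with Syn3, so levels per kb are approximate. By this measure the inhibitors changed places from library to library. Timp1 made up 22.6%, 3.69% and 50.2% of the summed level of the 3 inhibitors in WT 2, WT 3 and WT 4, and 9.57%, 62.8% and 18.4% in iKO 3, iKO 4 and iKO 33. Timp3 made up 31.1%, 36.6% and 5.44% in the WT-labelled libraries and 56.9%, 8.32% and 34.2% in the iKO-labelled ones. Timp2 held 28.9% to 59.7%. Both shares of Timp1 and of Timp3 overlapped between groups, and WT 4 and iKO 4 stood apart from the other 4 libraries.

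**Figure D3:**
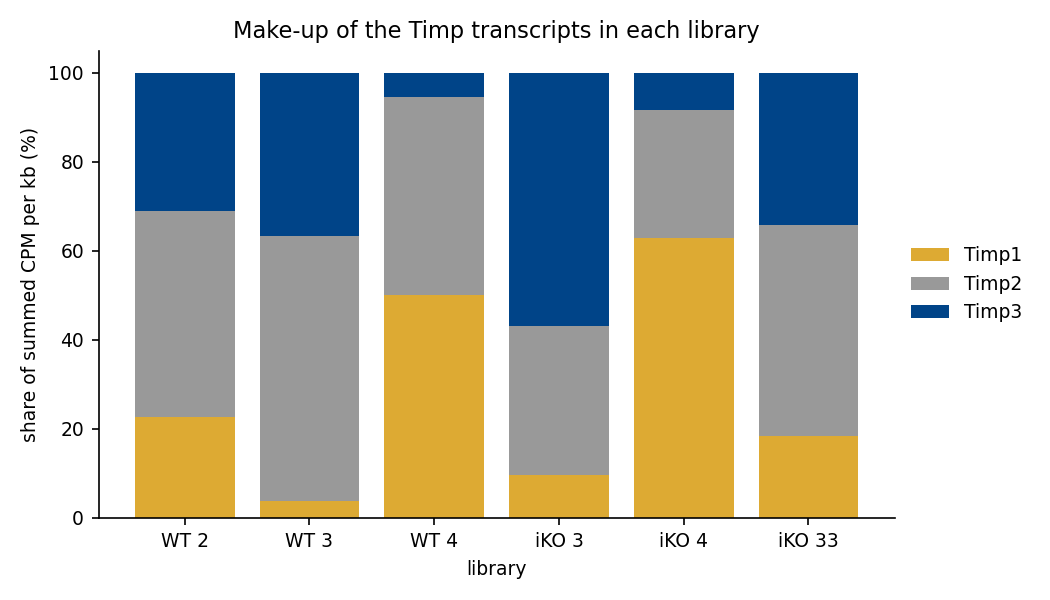
Stacked bars of the share (%) that Timp1, Timp2 and Timp3 each took of their summed CPM per kb, 1 bar per library. Timp1 holds 50.2% in WT 4 and 62.8% in iKO 4, and Timp3 at most 8.32% in these 2 libraries.

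The summed level of the 3 inhibitors was 126, 112 and 93.1 CPM per kb in WT 2, WT 3 and WT 4, and 187, 134 and 137 in iKO 3, iKO 4 and iKO 33. This sum did not overlap between groups, though each inhibitor alone did. Per unit of Mmp14, which they can inhibit to differing degrees, the sum was 8.83, 8.88 and 5.38 in the WT-labelled libraries and 7.87, 3.92 and 6.10 in the iKO-labelled ones, with overlap. The lowest ratio of each group was that of library 4. These sums were formed with the values known and carry no test.

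Over the 6 libraries the order of mean levels per kb was Timp2 (55.5 ± 12.4 CPM per kb, SD), Timp3 (41.7 ± 36.1), Plau (39.6 ± 8.23), Timp1 (34.5 ± 28.1), Mmp14 (20.8 ± 7.90) and Plaur (20.5 ± 11.2). Each gene of that order lay within the spread of its neighbour. Timp2 was first in WT 2, WT 3 and iKO 33, Timp3 in iKO 3 and Timp1 in WT 4 and iKO 4. Far below them came Mmp3 (0.123 ± 0.110), Mmp13 (0.0145 ± 0.0158) and Mmp9 (0.00918 ± 0.0116).

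Neither gene of the plasminogen activator pair was called. The receptor gene was higher in every library labelled iKO than in any labelled WT, and the enzyme gene overlapped between groups. Plaur (chromosome 7, 24462484 to 24475968, plus strand) measured 40.5, 16.6 and 50.0 CPM in WT 2, WT 3 and WT 4. In iKO 3, iKO 4 and iKO 33 it measured 50.2, 105 and 59.3 CPM. The groups did not overlap, but WT 4 and iKO 3 were nearly equal. The group values of Plaur were 35.7 ± 17.2 and 71.6 ± 29.5 CPM (SD, n = 3), with a log2 fold change of 1.01 (SE 0.44). Neither edgeR (unadjusted p = 0.0566, adjusted p = 0.350) nor DESeq2 (adjusted p = 0.167) called it. It was 0.62 without iKO 4, 0.66 without WT 3 and 1.33 without WT 4. The authors' deposited table gave 0.68 (SE 0.28) with an adjusted p of 0.169, where DESeq2 run here gave 1.01 (SE 0.42). Fold changes in that table were smaller for Timp3 too (0.21 against 0.94), so they are not on the same scale as those given here. Why they differ was not tested.

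Plau (chromosome 14, 20836660 to 20843385, plus strand) measured 93.7, 69.6 and 107 CPM in WT 2, WT 3 and WT 4, against 71.8, 103 and 118 in iKO 3, iKO 4 and iKO 33. The groups overlapped almost wholly. Group values were 90.0 ± 18.8 and 97.5 ± 23.5 CPM (SD, n = 3), with a log2 fold change of 0.12 (SE 0.23, edgeR adjusted p = 0.854). The level of Plaur per unit of Plau, both per kb, was 0.391, 0.215 and 0.424 in the WT-labelled libraries and 0.632, 0.926 and 0.454 in the iKO-labelled ones. This ratio did not overlap between groups and was not tested.

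The profiles closest to those of Mmp14 and Plaur over the 6 libraries were looked up by the root-mean-square difference of centred log2 CPM, among 10023 genes with a mean log2 CPM of at least 1. For Mmp14 they included Pvrl2 (0.10), which encodes a nectin adhesion protein, and Clcf1 (0.11), a cytokine gene. For Plaur, the gene with the largest log2 fold change of the 6, they were the Wnt ligand gene Wnt7a (0.17), the thrombospondin gene Thbs1 (0.18) and Dap (0.19). Thbs1 measured 367, 108 and 389 CPM in the WT-labelled libraries and 441, 1005 and 461.5 in the iKO-labelled ones. As in Plaur, WT 3 was its lowest library and iKO 4 its highest.

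Around the 9 genes, 69 others of the same pathways were found in the table, and 49 were tested. None passed in edgeR, 37 were higher and 12 lower, and their median log2 fold change was 0.26, against 0.01 over all tested genes. Of all 12672 tested genes, 6483 were higher and 6189 lower. In edgeR 11 of the 49 had an unadjusted p under 0.05 (9 higher, 2 lower), against 15% of all tested genes (928 higher, 976 lower). DESeq2 called 7, against 5.57% of the genes it gave an adjusted p. The groups did not overlap for 10 (8 higher, 2 lower), against 21.9% of all tested genes in either direction and 10.5% higher. Of the 20 not tested, Mmp7, Mmp20, Timp4, A2m and Plg, the plasminogen gene itself, had no read in any library.

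Of the other metalloproteinases 9 of 19 were tested, 6 higher and 3 lower (median 0.17). Mmp11, stromelysin-3, had the smallest p, with 3.13 ± 0.389 and 5.44 ± 0.750 CPM (SD, n = 3), with a log2 fold change of 0.80 (SE 0.23), and adjusted p = 0.184 in edgeR and 0.0209 in DESeq2. Mmp24, a membrane-type enzyme like Mmp14, stood at 0.72 (SE 0.39), and Mmp28, epilysin, at -0.77 (SE 0.42). Mmp2, the gelatinase that Mmp14 activates, was named after its values were seen and had a log2 difference of -0.04 (SE 0.39) at 2.23 ± 0.721 and 2.16 ± 0.752 CPM. Bsg, the surface glycoprotein known as a metalloproteinase inducer, stood at 0.32 (SE 0.11, edgeR adjusted p = 0.247) with no overlap, and Reck, a membrane-anchored inhibitor, at 0.59 (SE 0.44).

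Of 12 plasminogen system genes 10 were tested, 6 higher and 4 lower (median 0.05). Lrp1, the receptor that clears activator and inhibitor complexes from the surface, had 38.8 ± 12.8 and 72.5 ± 9.87 CPM (SD, n = 3). Its log2 fold change was 0.90 (SE 0.25), with adjusted p = 0.176 in edgeR and 0.0209 in DESeq2, and its groups did not overlap. Plat, the tissue-type activator, measured 9.73, 18.6 and 5.74 CPM in WT 2, WT 3 and WT 4 and 34.7, 15.3 and 35.0 in iKO 3, iKO 4 and iKO 33. Its groups overlapped through WT 3 and iKO 4, at a log2 fold change of 1.31 (SE 0.48). It did not pass in edgeR (adjusted p = 0.283).

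The list of proprotein convertases, pericellular serine proteases and their inhibitors held the largest log2 fold change among the tested genes of these pathways, that of Tmprss11e. Of its 9 tested genes 8 were higher and 1 lower (median 0.25), and none passed in edgeR. Tmprss11e, a type II transmembrane serine protease, measured 14.6 ± 7.87 and 66.3 ± 13.5 CPM (SD, n = 3). Its log2 fold change was 2.18 (SE 0.41), with adjusted p = 0.0968 in edgeR and 5.01e-06 in DESeq2. Prss8, prostasin, stood at 1.21 (SE 0.34) and Tmprss4 at -1.49 (SE 0.35), both without overlap. Their adjusted p was 0.184 and 0.140 in edgeR and 0.0183 and 0.00142 in DESeq2.

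Among ADAM and ADAMTS genes 10 of 12 tested were higher and 2 lower (median 0.47), with no call in edgeR. The sheddase gene Adam8 stood at 0.62 (SE 0.12, edgeR adjusted p = 0.101), Adam15 at 0.47 (SE 0.26) and Adamts1, which cleaves proteoglycans, at -1.64 (SE 0.49, edgeR adjusted p = 0.200). DESeq2 called Adam8 and Adamts1. Of 7 tested cathepsin and cystatin genes 5 were higher and 2 lower (median 0.34). Ctsl stood at 0.59 (SE 0.23), Ctsd at 0.39 (SE 0.19) and Ctsh at -0.43 (SE 0.29), all with overlap and none called by either tool.

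**Figure D4:**
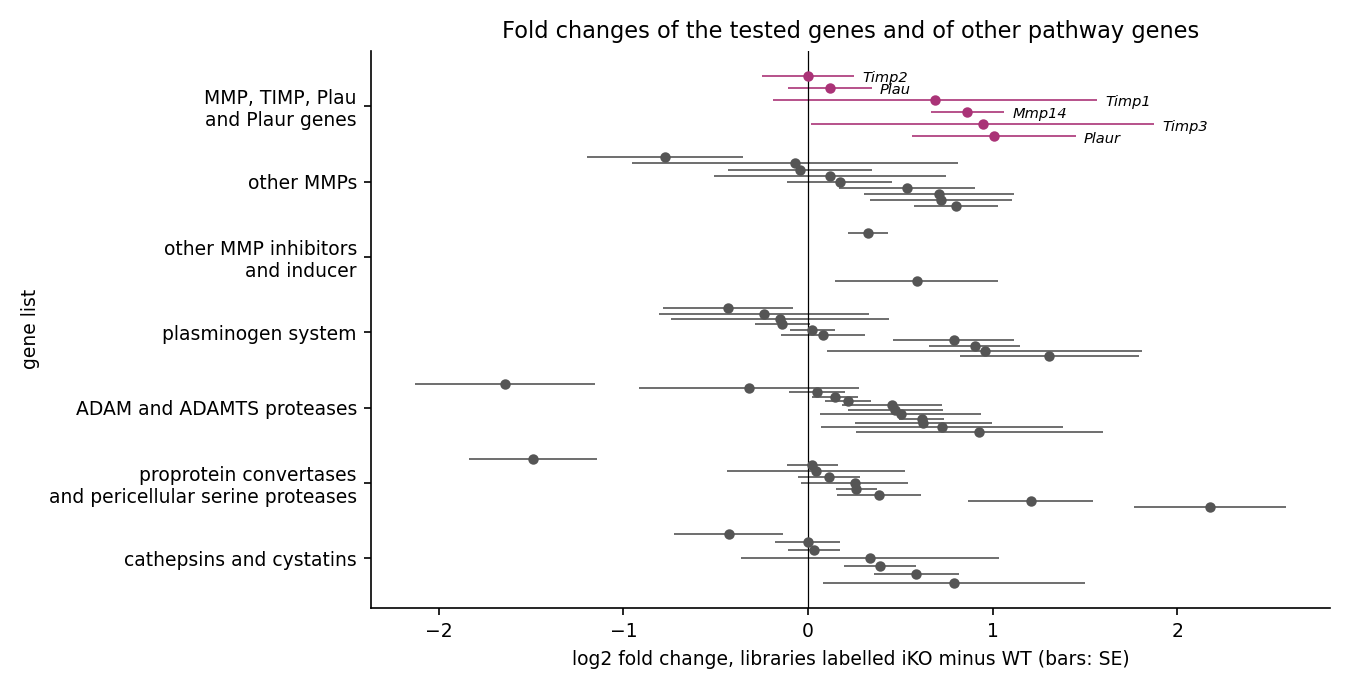
Log2 fold changes (libraries labelled iKO minus WT) with SE bars from edgeR for the 6 tested genes, named, and for the 49 other tested genes of the pathways by list. Mmp14 and Plaur lie at 0.86 and 1.01 with shorter bars than Timp1 and Timp3, whose SE are 0.88 and 0.93, and Timp2 lies at 0.

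In bulk RNA a smaller share of a cell type and less RNA per cell cannot be told apart, and fibroblasts and white blood cells are known sources of metalloproteinases. The 8 fibroblast markers summed to 0.691 to 2.64 CPM with the WT label and 0.959 to 3.38 CPM with the iKO label. Most of this was Pdgfra (0.599 to 2.89 CPM over the libraries), and Dcn and Lum had no read. The 8 macrophage and neutrophil markers summed to 30.5 to 52.3 CPM against 18.2 to 45.7, mostly S100a8 and S100a9, which keratinocytes also make. Ptprc, the common white blood cell antigen, had at most 0.0666 CPM and Emr1 had no read. The 4 endothelial markers summed to 9.31 to 19.0 CPM against 7.29 to 8.94, mostly Kdr. Pecam1 lay at 1.15 to 3.18 CPM and Cdh5 at no more than 0.0222 CPM. The 6 melanocyte markers summed to 6.08 to 11.9 CPM against 5.69 to 8.45. Most of this was Mitf (1.49 to 7.42 CPM) and Tyr (1.48 to 3.92 CPM), and Dct had no read.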

How the data were processed

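The deposited table holds raw counts of reads per gene symbol for 6 mRNA libraries of mouse keratinocytes, made with TruSeq kit chemistry per the labels' protocols. Per the submitters' processing notes, TopHat2, HTSeq, DESeq2, DESeq and mm10 were used; for their versions, the annotation and the strand setting the sources used here give nothing. The 5 summary rows (34.8% to 35.5% of counts with the WT label, 27.4% to 31.97% with the iKO label) were left out. A second deposited table, named for DESeq2, holds the authors' own test. Its columns, per the file headers, hold p-values, a test score, log2 fold changes and their SE, and a mean signal over the libraries.

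Column names were matched to titles, and the column numbered 33, which matches no title, was used as a library of the iKO group. All pairs of libraries of the same group differed by more than sampling noise (smallest chi-square per degree of freedom 48.6). Genes were filtered with filterByExpr (minimum count 10) and tested in edgeR 4.0.16 (R 4.3.3), TMM factors, glmQLFit and glmQLFTest with robust estimation, group as the only term, two-sided, Benjamini-Hochberg over all 12672 tested genes at 0.05. SE is the absolute log2 fold change over the square root of F. Log2 CPM used a prior count of 2. On simulated data for this comparison, with 12525 genes tested, 60 of 100 genes changed 2-fold and 96 of 100 changed 4-fold were recovered, with 15 false calls. The changed genes were drawn only from those above a minimum mean CPM, so recovery of lower genes was not measured. Recovery was not split by the spread of a gene either. DESeq2 1.42.0, limma-voom (limma 3.58.1), other scaling factors and filters, blocks and leaving out each library were alternatives. Positions and exon lengths (all annotated exons merged) come from GENCODE M21 on mm10, promoters from RefSeq on GRCm38.p6.

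The genes, the lists and the rule for naming were chosen with earlier results of these data known. Named were the 9 genes, up to 3 genes per pathway list with the smallest p, and the 3 profiles closest to the gene with the smallest p and to that with the largest fold change. Single genes named outside this rule are marked as such, and 2 genes that the rule takes are not reported here.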

Additional observations from a re-analysis of the deposited data

How the results depend on the processing

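Over 18 alternatives each, Mmp14 (0.65 to 0.99), Plaur (0.62 to 1.33) and Timp3 (0.03 to 1.43) kept a positive log2 fold change. Leaving out single libraries gave 0 called genes of the 6 tested in each case and 7 to 31 over all genes, against 43 with all libraries (7 with WT 2 left out, 21 with WT 4, 20 with iKO 3, 13 with iKO 4, 17 with iKO 33). Over all genes, 76 were called with every gene of at least 1 count, 757 in DESeq2 and 152 at an adjusted p of 0.1. DESeq2 called 1 of the 6, Mmp14 (0.86). Changes of sign lay near 0, except for Timp1 with iKO 4 left out and for Timp2. Timp2, at -0.001 with all libraries, was 0.204 without iKO 4 and 0.154 without WT 3. Over single libraries left out, Timp1 ranged from -0.29 to 1.402, Plau from -0.042 to 0.297 and Timp2 from -0.187 to 0.204. Timp2 was 0.017 with upper quartile factors, 0.006 with a minimum of 1 CPM in 3 libraries and 0.003 with a block of the 2 deepest libraries. No cause was tested.

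Only the numbers 3 and 4 occur in both groups, and nothing in the labels says that they mark a shared batch. A replicate block on these 4 libraries called 103 genes, 1 of the 6 among them, Timp3 at 1.26 (edgeR adjusted p = 0.0419), with Plau at -0.004. Plaur and Mmp14 lay just above the threshold in that fit (edgeR adjusted p = 0.0529 and 0.0533). A block term and a group term on 4 libraries leave almost no freedom to measure spread. Without the block term, added after seeing the data, the same 4 libraries gave 4 calls, none among the 6, with Plau at -0.012 and Timp3 at 1.35 (adjusted p = 0.820). Over the other alternatives the adjusted p of Timp3 reached 0.994. Deviations from the group mean correlated at 0.77 between WT 4 and iKO 4 and at 0.22 between WT 3 and iKO 3 across 5735 genes, which are not independent replicates. Pairs with unlike numbers reached 0.44 (WT 3 and iKO 33) and 0.34 (WT 2 and iKO 3), and fell to -0.60 (WT 3 and iKO 4) and -0.58 (WT 4 and iKO 3). Deviations within a group are tied to each other through its mean, so these values are not independent. Whether the numbers mark pairs was not tested. Depth limits Mmp3, Mmp9 and Mmp13, which the count filter of the edgeR test left out.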

Other observations

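The genes whose profiles lay closest to Timp3 and Timp1 were looked up after the values of the inhibitors were seen. For Timp3 they were Hephl1, a multicopper ferroxidase gene, Dlx3, a homeobox gene of epidermal and hair differentiation, and Fhl1, a LIM domain gene, with root-mean-square differences of 0.35, 0.42 and 0.43 in log2 CPM. Hephl1 measured 5.62, 12.7 and 1.14 CPM in WT 2, WT 3 and WT 4, and 19.2, 2.62 and 11.0 in iKO 3, iKO 4 and iKO 33. Dlx3 measured 5.30, 5.18 and 0.739 CPM in the WT-labelled libraries and 12.2, 2.38 and 3.84 in the iKO-labelled ones. As in Timp3, the libraries numbered 4 were the lowest of each group in both genes.

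For Timp1 the closest profiles were those of Cxcr7, a chemokine receptor gene (0.22), the cathepsin gene Ctsz (0.39) and Ctla2a, which encodes a cysteine protease inhibitor (0.39). Cxcr7 measured 30.1, 4.65 and 44.4 CPM in WT 2, WT 3 and WT 4, and 16.5, 63.3 and 18.8 in iKO 3, iKO 4 and iKO 33. Ctla2a measured 5.62, 1.92 and 15.6 CPM in the WT-labelled libraries and 7.13, 27.8 and 7.03 in the iKO-labelled ones. In these genes WT 3 was the lowest library and iKO 4 the highest.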
